A study of Mus musculus with 24 samples.

Results

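The 45 genes described here serve the photoreceptor cilium and the traffic through it. They are 7 subunits of the BBSome, the GTPase Arl6 that recruits it, 2 chaperonin-like assembly factors, 10 subunits of the intraflagellar transport complex B (IFT-B), 3 of complex A (IFT-A), the adapter Tulp3, 3 kinesin-2 motor subunits, 10 proteins of the transition zone and connecting cilium, 3 proteins of the axoneme and basal body, and 5 carriers of lipidated cargo. They were taken by symbol from a list of names, and all 45 were found among the 33846 rows of the gene table and passed the filter on low counts, which left 16792 genes. The rule uses names and no measured value, though the names were put together with earlier results of these data known.

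The outer segment of a photoreceptor is a modified primary cilium, joined to the cell body by a thin connecting cilium that is its transition zone. Kinesin-2 motors carry IFT trains from the base toward the tip and dynein-2 brings them back, while the BBSome rides on these trains and moves membrane proteins, and UNC119 and PDE6D carry proteins with a lipid anchor, such as transducin and phosphodiesterase subunits. Mutations in many of these genes cause retinal degeneration, alone or within Bardet-Biedl, Joubert and related syndromes.

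The study grew retinal organoids from mouse embryonic stem cells and sequenced their polyadenylated RNA over the days of differentiation (D). In the rotating-wall bioreactor (RWB), optic cups cut from the organoids at D10 were kept in a slowly turning vessel, with 2 libraries at D18, 3 at D22 and 3 at D25. In dissected static suspension culture (SSCd) the same kind of optic cup was kept in dishes, with 3 libraries each at D18, D22 and D28. In intact static suspension culture (SSCi) the organoids were not cut, with 2 libraries at D18, 2 at D25 and 3 at D32. The stem cells, called wild type in the labels, came from Nrl-GFP transgenic mice, which carry a reporter of rod photoreceptors, or were the R1 clone. The labels do not say which library came from which. A difference between clones therefore cannot be told apart from the spread within groups or from differences between cultures and days. All cultures received N2 supplement, taurine, 9-cis retinal and insulin-like growth factor 1, without any vehicle-only group. The medium of RWB and SSCd gained serum, B27 without vitamin A and non-essential amino acids at D18, and that of SSCi only at D26. Across that addition, the effect of day and that of the added supplements cannot be told apart. SSCi D18 and SSCi D25 both came before it. The series text counts repeated experiments as biological replicates.

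Values are CPM (counts scaled to a fixed library total), scaled by TMM over libraries of 13284632 to 21604446 estimated counts. The summed level of 15 photoreceptor marker genes was 4839 to 5429 CPM in RWB D25 and 521 to 730.3 in RWB D18, 4839 to 12433 in SSCd D28 and 686 to 783 in SSCd D18, and 9379 to 12351 in SSCi D32 and 353 to 485 in SSCi D18. Over the same days the sum of 15 cell cycle markers fell to 306 to 502 CPM in RWB D25, against 3405 to 3771 in RWB D18, and all 15 were called lower in each of the 3 cultures. In bulk tissue, more cells of a type and more RNA per cell cannot be told apart, and the part of these shifts in the results below was not tested. Markers of multiciliated cells, the other ciliated cell type considered, summed to 62 to 173 CPM over 18 genes in all 24 libraries, and their regulator Foxj1 lay between 0.844 and 5.44 CPM. The share of counts from mitochondrially encoded genes was 2.46% to 5.76% in 20 libraries. It was 13.1% in RWB D25 replicate 1, 10.2% in RWB D22 replicate 1, 9.57% in SSCd D18 replicate 1 and 8.26% in SSCd D22 replicate 1. Replicate 1 of SSCi D18 held 6452 CPM of 8 mesenchyme markers, against 11.8 to 311 CPM in the other 23 libraries.

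All 7 listed BBSome subunits and their recruiter Arl6 rose between D18 and the last day of each culture. So did the transition zone genes Cep290, Rpgrip1, Ahi1 and Cc2d2a and the cargo genes Unc119 and Arl13b. Most genes of the IFT complexes did not pass the test in any culture. In RWB, 20 of the 45 genes were higher at D25 than at D18 and 0 were lower, where 28.9% of all genes tested were called, 14.9% as higher and 14.0% as lower. In SSCd, 22 were higher and 2 lower at D28 than at D18, where 34.6% of all genes were called, 17.5% as higher and 17.1% as lower. In SSCi, 22 were higher and 2 lower at D32 than at D18, where 36.7% of all genes were called, 16.2% as higher and 20.5% as lower. The median log2 fold change of the 45 genes was 0.62 in RWB, 0.60 in SSCd and 0.80 in SSCi, beside 0.06, 0.02 and -0.05 over all genes tested. Of the 45 genes, 18 were higher in all 3 cultures, 3 in exactly 2 and 4 in exactly 1, 2 were lower in SSCd and SSCi, and 18 were not called in any. A gene was called where edgeR's quasi-likelihood test gave a Benjamini-Hochberg adjusted p under 0.05, taken across the 16792 genes. The libraries of the last day and D18 did not overlap in 27 of the 45 genes in RWB, 29 in SSCd and 37 in SSCi, beside 48.5%, 47.8% and 63.5% of all genes.

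**Figure D1:**
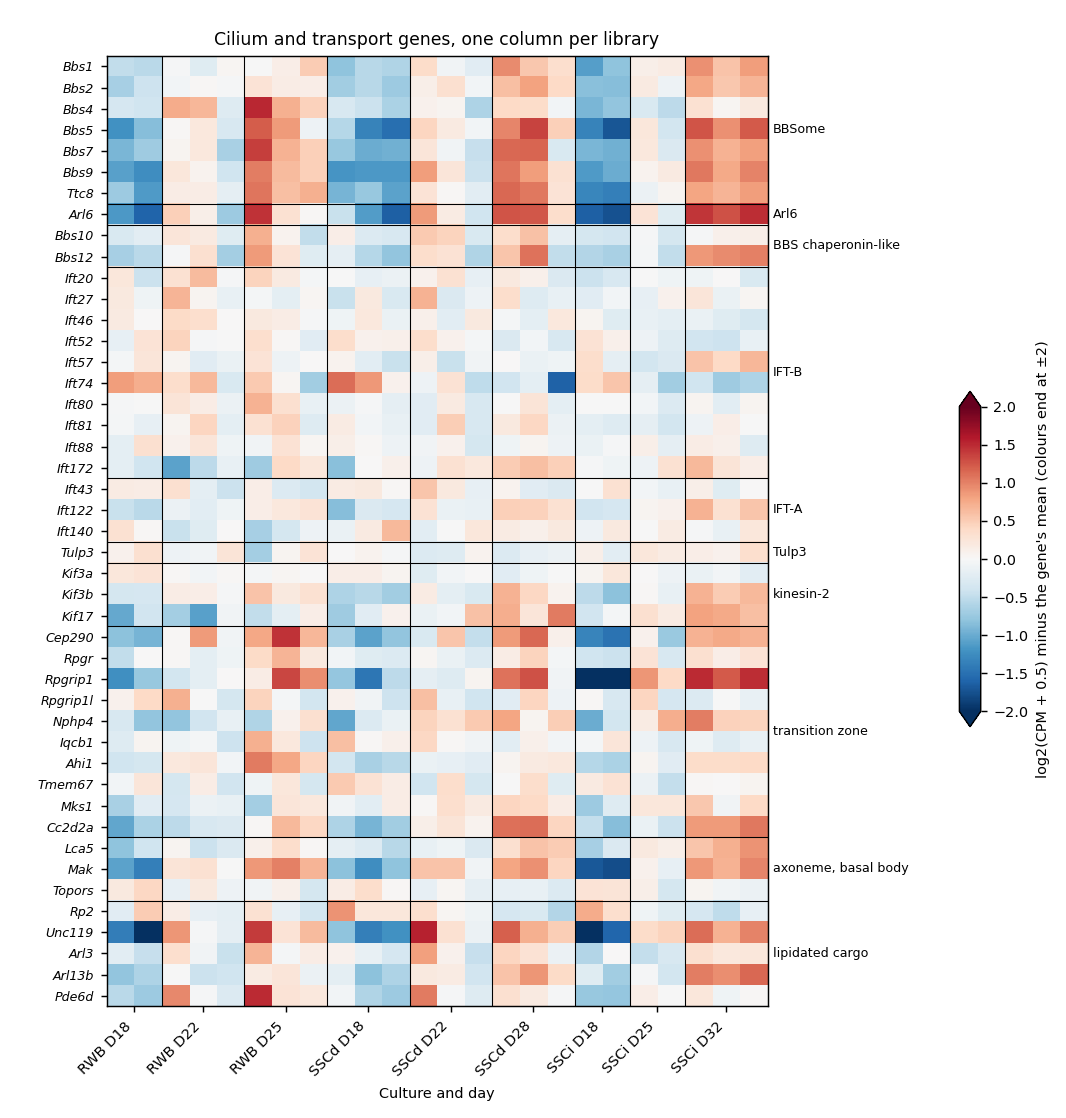
Level of the 45 genes in each of the 24 libraries, as log2(CPM + 0.5) minus the mean of the gene over all libraries, grouped by culture and day across the page and by role down it; the colours end at ±2. Most BBSome genes, Arl6, Rpgrip1, Mak and Unc119 are blue at D18 and mostly red on the last day of each culture, most IFT genes are pale throughout, and Ift74 is red at D18 and blue in most last-day libraries.

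The counts differed between the roles. All 7 listed BBSome subunits were higher in RWB, in SSCd and in SSCi. Of the 10 IFT-B subunits, 8 were not called in any culture, and of the 3 IFT-A subunits Ift122 alone was called, as higher in all 3. Of the 10 transition zone genes, 5 were higher in RWB, 5 in SSCd and 7 in SSCi, and 0 were lower. The BBSome count was lowest in RWB, where 5 of the 7 were still called under the alternative that took the most calls from it, while 6 of the 7 were in SSCd and 6 in SSCi. The difference between the roles was not itself tested.

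The 7 BBSome subunits form the coat-like complex that carries membrane proteins in cilia. Bbs5 binds phosphoinositides (chr2:69647171-69667571, GRCm38, plus strand). In RWB, Bbs5 was at 14.7 and 19.1 CPM at D18, 35.4, 40.1 and 27.8 at D22, and 80.8, 63 and 32.4 at D25. The SSCd values were 23.2, 13.4 and 11.9 CPM at D18, 46.7, 39.2 and 33.4 at D22, and 68.8, 89.5 and 48.2 at D28. The SSCi values were 13.4 and 10.3 CPM at D18, 40.7 and 26.9 at D25, and 83.3, 65.6 and 82 at D32. Every library of the last day lay above every D18 library of its culture. The log2 fold change of the last day over D18, with its standard error (SE), was 1.79 ± 0.37 in RWB (edgeR adjusted p = 0.00093), 2.09 ± 0.32 in SSCd (edgeR adjusted p = 3.8e-05) and 2.70 ± 0.38 in SSCi (edgeR adjusted p = 1.6e-05).

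Ttc8, also called Bbs8, is a tetratricopeptide repeat subunit (chr12:98920574-98983238, plus strand). In RWB it was at 58.1 and 43.7 CPM at D18, 106, 106 and 84.5 at D22, and 203, 147 and 157 at D25. Its SSCd libraries held 50.1, 56.3 and 45.2 CPM at D18, 116, 97.6 and 82.7 at D22, and 213, 200.4 and 116 at D28. Its SSCi libraries held 38.6 and 36.9 CPM at D18, 88.7 and 99.4 at D25, and 166, 154 and 172 at D32. Levels of D18 and the last day did not overlap in any culture, and the 3 days of RWB did not overlap with each other. Its changes over D18 on the log2 scale were 1.73 ± 0.24 in RWB (edgeR adjusted p = 1.7e-05), 1.80 ± 0.21 in SSCd (edgeR adjusted p = 1.3e-06) and 2.12 ± 0.24 in SSCi (edgeR adjusted p = 1.3e-06). Bbs9, a propeller-shaped subunit at the core of the complex (chr9:22475715-22888280, plus strand), was at 27.2 and 24.3 CPM at D18, 68.2, 60.9 and 44.1 at D22, and 119, 90.1 and 81 at D25 in RWB. In SSCd, Bbs9 was at 25.4, 25.9 and 25.9 CPM at D18, 104, 69.2 and 42.9 at D22, and 123, 104 and 72.4 at D28. In SSCi, Bbs9 was at 26.3 and 28.9 CPM at D18, 61.4 and 66.2 at D25, and 122, 98.6 and 116 at D32. The D18 libraries of all 3 cultures kept within 24.3 to 28.9 CPM, below every later library. Its log2 fold changes were 1.91 ± 0.30 in RWB (edgeR adjusted p = 7.2e-05), 1.95 ± 0.26 in SSCd (edgeR adjusted p = 7.5e-06) and 2.03 ± 0.30 in SSCi (edgeR adjusted p = 2.7e-05).

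The other listed subunits, Bbs1, Bbs2, Bbs4 and Bbs7, rose in all 3 cultures as well. Bbs1, which contacts Arl6, had log2 fold changes of 0.75 ± 0.21 in RWB (edgeR adjusted p = 0.012), 1.28 ± 0.19 in SSCd (edgeR adjusted p = 2.6e-05) and 1.73 ± 0.22 in SSCi (edgeR adjusted p = 5.1e-06). Bbs2 had 0.73 ± 0.16 in RWB (edgeR adjusted p = 0.0021), 1.28 ± 0.14 in SSCd (edgeR adjusted p = 1.2e-06) and 1.53 ± 0.17 in SSCi (edgeR adjusted p = 8.3e-07), and Bbs7, its partner in the core, had 1.72 ± 0.37 in RWB (edgeR adjusted p = 0.0014), 1.73 ± 0.32 in SSCd (edgeR adjusted p = 0.00028) and 1.76 ± 0.37 in SSCi (edgeR adjusted p = 0.00090). Bbs4, which also binds a protein of the centriolar satellites, was at 57.3 and 54.7 CPM at D18, 121, 114 and 60.5 at D22, and 206, 119 and 99.9 at D25 in RWB. In SSCd it held 57.6, 53.7 and 46.1 CPM at D18, 77, 74.8 and 46.8 at D22, and 95.7, 93 and 69.8 at D28. In SSCi it held 38.2 and 41.7 CPM at D18, 58.2 and 50.2 at D25, and 89.1, 74.5 and 83 at D32. Replicate 1 of RWB D25, the library with 13.1% mitochondrially encoded counts, had the highest Bbs4 level of all 24. Its log2 fold changes were 1.34 ± 0.31 in RWB (edgeR adjusted p = 0.0024), 0.72 ± 0.26 in SSCd (edgeR adjusted p = 0.041) and 1.04 ± 0.30 in SSCi (edgeR adjusted p = 0.010). The SSCd call of Bbs4 was lost without any 1 of SSCd D18 replicate 1 (0.064), SSCd D18 replicate 2 (0.085), SSCd D18 replicate 3 (0.12), SSCd D28 replicate 1 (0.12) or SSCd D28 replicate 2 (0.10), where the adjusted p is in parentheses. The SSCi call of Bbs4 was lost without SSCi D18 replicate 1 (0.092), and the RWB call of Bbs1 without any 1 of RWB D18 replicate 1 (0.062), RWB D18 replicate 2 (0.11) or RWB D25 replicate 3 (0.054).

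Arl6, the small GTPase that brings the BBSome to the membrane (chr16:59612949-59639391, minus strand), changed more than any BBSome subunit in SSCi. In RWB it was at 55.4 and 40.2 CPM at D18, 171, 134 and 74.4 at D22, and 337, 153 and 126 at D25. SSCd libraries measured 90.7, 56.7 and 39.3 CPM at D18, 222, 138 and 93.2 at D22, and 295, 294 and 158 at D28. SSCi libraries measured 39.5 and 36.7 CPM at D18, 149.6 and 104 at D25, and 333, 300.2 and 346 at D32. No library of the last day overlapped with D18, and the 3 SSCi D32 libraries lay close together. Replicate 1 of RWB D22, RWB D25, SSCd D18 and SSCd D22, the 4 libraries with the most mitochondrially encoded counts, each held the highest Arl6 level of its group, which was so for 10 of the 45 genes, and the part of the mitochondrial share in these levels was not tested. Arl6 had log2 fold changes of 2.10 ± 0.47 in RWB (edgeR adjusted p = 0.0021), 2.00 ± 0.40 in SSCd (edgeR adjusted p = 0.00066) and 3.10 ± 0.50 in SSCi (edgeR adjusted p = 6.4e-05). Bbs12, a chaperonin-like factor that helps assemble the BBSome, had 0.99 ± 0.41 in RWB (edgeR adjusted p = 0.075), 1.03 ± 0.35 in SSCd (edgeR adjusted p = 0.029) and 1.58 ± 0.41 in SSCi (edgeR adjusted p = 0.0050). The D28 and D18 libraries of Bbs12 in SSCd overlapped, at 40.2, 57.8 and 19.1 CPM in D28 and 23.8, 18.1 and 15.4 CPM in D18. That SSCd call was lost without any 1 of SSCd D18 replicate 2 (0.084), SSCd D18 replicate 3 (0.10), SSCd D28 replicate 1 (0.063) or SSCd D28 replicate 2 (0.20), again with the adjusted p in parentheses. Bbs10, its partner, was not called, with log2 fold changes of 0.45 ± 0.32 in RWB, 0.45 ± 0.28 in SSCd and 0.45 ± 0.32 in SSCi.

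**Figure D2:**
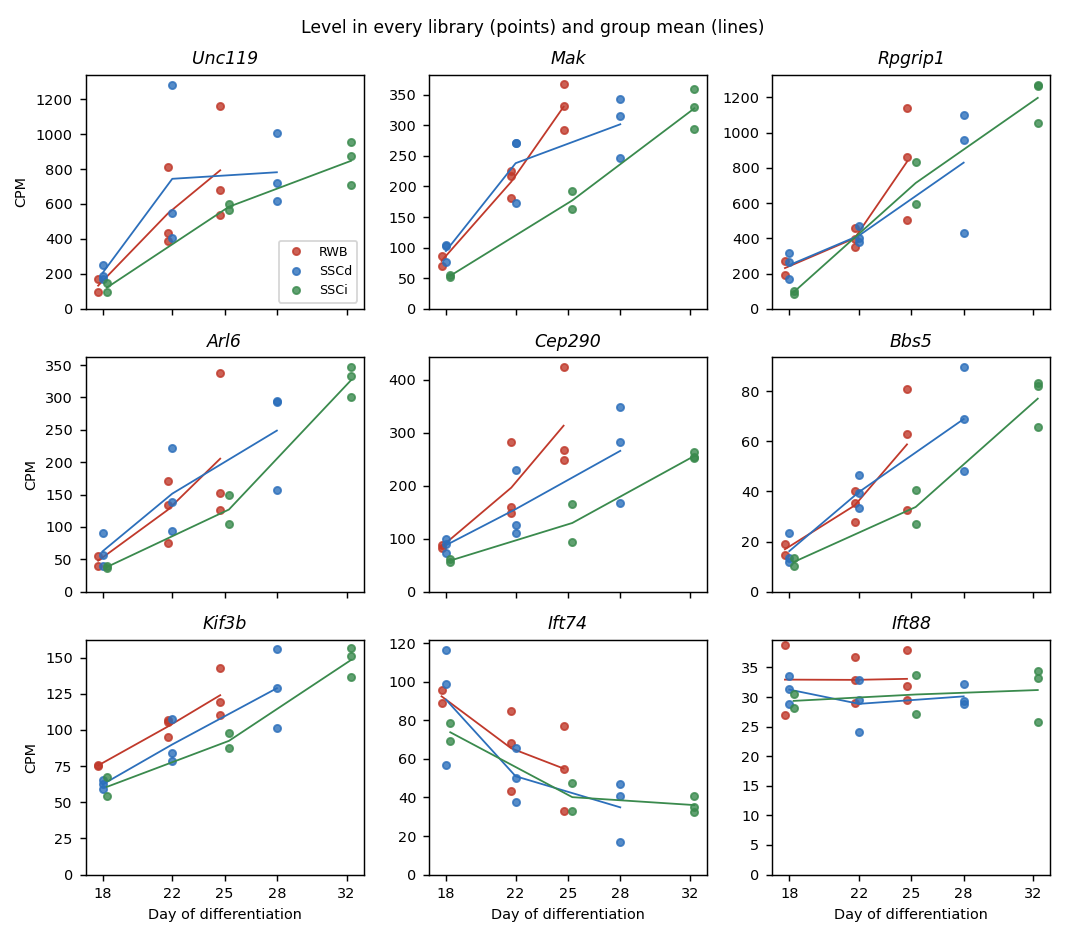
CPM of 9 of the 45 genes against the day of differentiation, with a point per library, a line through the group means, and the cultures set slightly apart so that points do not hide each other. Unc119, Mak, Rpgrip1, Arl6, Cep290, Bbs5 and Kif3b lie higher on the last day than at D18 in every culture, Ift74 lies lower, and Ift88 stays between 24.1 and 38.9 CPM.

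IFT-B is the part of the train that carries cargo toward the tip, and 8 of its 10 subunits did not pass the test in any culture. The log2 fold changes of Ift20, Ift27, Ift46, Ift52, Ift57, Ift80, Ift81 and Ift88 lay between -0.51 ± 0.20, for Ift52 in SSCi, and 0.45 ± 0.22, for Ift57 in SSCi. Ift88, the subunit whose loss stops cilium growth in mouse, was at 29.5, 37.9 and 31.8 CPM in RWB D25 and 27 and 38.9 CPM in RWB D18. Its log2 fold changes were 0.01 ± 0.20 in RWB, -0.05 ± 0.18 in SSCd and 0.09 ± 0.20 in SSCi. Ift27, the small GTPase of the complex that helps the BBSome leave the cilium, had -0.13 ± 0.30, 0.17 ± 0.27 and 0.20 ± 0.30 in RWB, SSCd and SSCi.

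Ift74, which with Ift81 binds tubulin (chr4:94614491-94693229, plus strand), fell in the static cultures. In RWB it was at 96 and 89 CPM at D18, 68.3, 84.7 and 43.4 at D22, and 77.2, 55 and 32.9 at D25. Levels in SSCd were 117, 98.7 and 57 CPM at D18, 49.9, 65.4 and 37.7 at D22, and 40.8, 46.8 and 17.1 at D28. Levels in SSCi were 69.1 and 78.6 CPM at D18, 47.3 and 33.1 at D25, and 40.6, 32.6 and 34.9 at D32. The last day lay below D18 without overlap in all 3 cultures, and the 3 libraries of SSCd D28 spread widely. Its changes over D18 on the log2 scale were -0.75 ± 0.39 in RWB (edgeR adjusted p = 0.16), -1.38 ± 0.36 in SSCd (edgeR adjusted p = 0.0052) and -1.03 ± 0.39 in SSCi (edgeR adjusted p = 0.043), so that the RWB value did not pass the test. The SSCi call was lost without any 1 of the 5 libraries compared, with an adjusted p of 0.062 to 0.20. Ift172, the largest IFT-B subunit, was called in SSCd alone, with log2 fold changes of 0.34 ± 0.31 in RWB (edgeR adjusted p = 0.44), 0.72 ± 0.28 in SSCd (edgeR adjusted p = 0.049) and 0.42 ± 0.31 in SSCi (edgeR adjusted p = 0.32). It was at 99.7, 106 and 97.9 CPM in SSCd D28 and at 38.8, 70.4 and 75.4 CPM in SSCd D18, where replicate 1 was the low one. That call was lost without any 1 of SSCd D18 replicate 1 (0.22), SSCd D18 replicate 2 (0.062), SSCd D28 replicate 1 (0.086), SSCd D28 replicate 2 (0.11) or SSCd D28 replicate 3 (0.081), and whether the change of Ift172 differs between cultures was not tested.

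In IFT-A, the part of the train needed for the return trip, Ift122 (chr6:115853470-115926699, plus strand) rose in all 3 cultures. Ift122 was at 44.2 and 41.5 CPM at D18, 55.7, 52.1 and 56.8 at D22, and 66.1, 70.0 and 73.1 at D25 in RWB. Its SSCd levels were 33.3, 49.3 and 47.6 CPM at D18, 73.7, 55.1 and 54.1 at D22, and 84.3, 83.1 and 74.8 at D28. Its SSCi levels were 45.9 and 47.4 CPM at D18, 62.8 and 63.7 at D25, and 97.6, 74.6 and 88.7 at D32. The libraries of D18 all lay at 33.3 to 49.3 CPM, below those of the last day. Its log2 fold changes were 0.70 ± 0.18 in RWB (edgeR adjusted p = 0.0053), 0.89 ± 0.16 in SSCd (edgeR adjusted p = 0.00017) and 0.90 ± 0.18 in SSCi (edgeR adjusted p = 0.00056), and the RWB call was lost without RWB D18 replicate 2 (0.072). Ift140, another IFT-A subunit, had -0.53 ± 0.22 (edgeR adjusted p = 0.081) in RWB, -0.11 ± 0.20 in SSCd and -0.03 ± 0.22 in SSCi, and Ift43 and the adapter Tulp3, which brings membrane receptors into cilia with IFT-A, were not called either.

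Among the kinesin-2 motors, Kif3b (chr2:153291413-153333390, plus strand) rose in all 3 cultures, and its partner Kif3a was not called in any. Kif3b was at 75 and 75.8 CPM at D18, 107, 105 and 95 at D22, and 143, 110.1 and 119 at D25 in RWB. In SSCd it was at 62.7, 65.1 and 59.1 CPM at D18, 107, 84.3 and 78.2 at D22, and 156, 129 and 101 at D28. In SSCi it was at 67.1 and 54.1 CPM at D18, 97.7 and 87.2 at D25, and 157, 137 and 151 at D32. The log2 fold changes of Kif3b were 0.72 ± 0.18 in RWB (edgeR adjusted p = 0.0055), 1.05 ± 0.16 in SSCd (edgeR adjusted p = 4.3e-05) and 1.29 ± 0.19 in SSCi (edgeR adjusted p = 2.0e-05), without overlap between the last day and D18. Kif3a, the other heavy chain of the same motor, was between 104 and 149 CPM in all 24 libraries, with -0.24 ± 0.12 in RWB, -0.21 ± 0.11 in SSCd and -0.28 ± 0.12 in SSCi. The RWB call of Kif3b was lost without RWB D18 replicate 2 (0.054). Kif17, the homodimeric kinesin-2, was the lowest of the 45 genes per length and was at 3.65, 2.45 and 4.65 CPM in SSCd D28 and 1.03, 1.64 and 2.16 CPM in SSCd D18. It was called in SSCd, at 1.15 ± 0.40 (edgeR adjusted p = 0.033), and that call was lost without any 1 of SSCd D18 replicate 1 (0.13), SSCd D18 replicate 2 (0.079), SSCd D28 replicate 1 (0.068) or SSCd D28 replicate 3 (0.13). In RWB, Kif17 had 0.69 ± 0.47, and in SSCi 1.12 ± 0.46 (edgeR adjusted p = 0.062).

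The transition zone gene with the widest range was Rpgrip1 (chr14:52110704-52163546, plus strand), the anchor that holds Rpgr at the connecting cilium. In RWB, Rpgrip1 was at 194 and 269 CPM at D18, 351, 396 and 457 at D22, and 502, 1142 and 861 at D25. The SSCd values were 264, 167 and 315 CPM at D18, 400.2, 379.9 and 469 at D22, and 959, 1100.3 and 430.5 at D28. The SSCi values were 86.6 and 103 CPM at D18, 833 and 596 at D25, and 1271, 1055 and 1267 at D32. The SSCi D18 libraries were the lowest of all and did not overlap with any other group, and SSCd D28 replicate 3 was the low one of its group. Rpgrip1 had log2 fold changes of 1.85 ± 0.37 in RWB (edgeR adjusted p = 0.00082), 1.74 ± 0.32 in SSCd (edgeR adjusted p = 0.00027) and 3.66 ± 0.41 in SSCi (edgeR adjusted p = 1.0e-06).

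Cep290, the large coiled-coil protein that bridges microtubules and membrane at the gate (chr10:100487558-100574840, plus strand), rose in all 3 cultures. It was at 87.7 and 82 CPM at D18, 159, 282 and 148 at D22, and 268, 424 and 248 at D25 in RWB. SSCd libraries measured 99.6, 73.6 and 89.9 CPM at D18, 126, 230.4 and 111 at D22, and 282, 348 and 168 at D28. SSCi libraries measured 61.8 and 55.6 CPM at D18, 166 and 93.1 at D25, and 254, 263 and 252 at D32. Levels of the last day lay above those of D18 without overlap, and in RWB replicate 2 stood above its group at D22 and at D25. Its log2 fold changes were 1.88 ± 0.37 in RWB (edgeR adjusted p = 0.00072), 1.60 ± 0.32 in SSCd (edgeR adjusted p = 0.00059) and 2.13 ± 0.38 in SSCi (edgeR adjusted p = 0.00019). Cc2d2a, a gate protein of the complex shared with Mks1 (chr5:43662346-43740972, plus strand), was at 34.4 and 45.6 CPM at D18, 49.6, 57 and 58.3 at D22, and 72.6, 112 and 94.6 at D25 in RWB. Its SSCd levels were 46.3, 37.3 and 43.6 CPM at D18, 77, 85.3 and 74.9 at D22, and 153, 155 and 95.9 at D28. Its SSCi levels were 51.3 and 39.4 CPM at D18, 64.6 and 53 at D25, and 129, 128 and 149 at D32. Cc2d2a rose without overlap in each culture, with log2 fold changes of 1.22 ± 0.22 in RWB (edgeR adjusted p = 0.00035), 1.67 ± 0.20 in SSCd (edgeR adjusted p = 2.0e-06) and 1.58 ± 0.23 in SSCi (edgeR adjusted p = 2.0e-05).

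Ahi1, which the mouse outer segment needs (chr10:20952547-21080429, plus strand), was at 97.1 and 101 CPM at D18, 149, 153 and 124 at D22, and 264, 219.5 and 174 at D25 in RWB. Its SSCd libraries held 99.7, 82 and 87.7 CPM at D18, 118, 115 and 110.2 at D22, and 134, 145 and 149.8 at D28. Its SSCi libraries held 86.7 and 82.5 CPM at D18, 134 and 109.9 at D25, and 166, 167 and 171 at D32. The 3 RWB D25 libraries were the highest of all groups. The log2 fold changes of Ahi1 were 1.15 ± 0.17 in RWB (edgeR adjusted p = 2.8e-05), 0.67 ± 0.14 in SSCd (edgeR adjusted p = 0.0011) and 0.99 ± 0.16 in SSCi (edgeR adjusted p = 9.5e-05). Rpgr, the guanine-exchange-factor-like protein of the connecting cilium on the X chromosome (chrX:10073621-10216920, minus strand), was at 46.1 and 65.3 CPM at D18, 66.1, 56.6 and 60.8 at D22, and 84.8, 103 and 74.3 at D25 in RWB. Levels in SSCd were 62.6, 54.4 and 53.2 CPM at D18, 66.2, 59 and 53.3 at D22, and 72, 87.9 and 63.3 at D28. Levels in SSCi were 49.1 and 48 CPM at D18, 78 and 51.7 at D25, and 80.9, 71 and 78 at D32. The last day lay above D18 without overlap in each culture, with log2 fold changes of 0.65 ± 0.20 in RWB (edgeR adjusted p = 0.020), 0.39 ± 0.18 in SSCd (edgeR adjusted p = 0.098) and 0.66 ± 0.20 in SSCi (edgeR adjusted p = 0.015). Rpgr was not called in RWB without either RWB D18 replicate 1 (0.23) or RWB D25 replicate 2 (0.085), nor in SSCi without either SSCi D18 replicate 1 (0.071) or SSCi D18 replicate 2 (0.057).

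Nphp4, a scaffold of the gate, was called in SSCd, at 0.94 ± 0.30 (edgeR adjusted p = 0.020), and in SSCi, at 1.34 ± 0.35 (edgeR adjusted p = 0.0045), and had 0.54 ± 0.34 in RWB. The SSCd call of Nphp4 was lost without either SSCd D18 replicate 1 (0.10) or SSCd D28 replicate 1 (0.093), and its SSCi call without SSCi D18 replicate 1 (0.092). Mks1, named for Meckel syndrome, was called in SSCi alone, at 0.80 ± 0.26 (edgeR adjusted p = 0.020), and that call was lost without any 1 of SSCi D18 replicate 1 (0.22), SSCi D32 replicate 1 (0.079) or SSCi D32 replicate 3 (0.053). Rpgrip1l, Iqcb1 and Tmem67, which build or adjoin the same gate in most ciliated cells, were not called in any culture, with log2 fold changes between -0.31 ± 0.23, for Iqcb1 in SSCd, and 0.33 ± 0.26, for Iqcb1 in RWB. Rpgrip1, the retinal relative of Rpgrip1l, rose in all 3 cultures, while Rpgrip1l had -0.21 ± 0.34 in RWB, 0.19 ± 0.30 in SSCd and 0.01 ± 0.34 in SSCi.

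Along the axoneme, the kinase Mak, which limits cilium length in photoreceptors (chr13:41025008-41079706, minus strand), rose in all 3 cultures. In RWB, Mak was at 86.7 and 70.0 CPM at D18, 218, 225 and 180.4 at D22, and 332, 367 and 292 at D25. In SSCd, Mak was at 102, 76.7 and 104 CPM at D18, 272, 270.2 and 172 at D22, and 316, 343 and 246 at D28. In SSCi, Mak was at 55.5 and 52.6 CPM at D18, 192 and 162 at D25, and 330.2, 294 and 358 at D32. In RWB and SSCi the 3 days did not overlap, and in SSCd the highest D22 library exceeded the lowest D28 library. Mak had log2 fold changes of 2.08 ± 0.23 in RWB (edgeR adjusted p = 1.4e-06), 1.68 ± 0.19 in SSCd (edgeR adjusted p = 1.3e-06) and 2.60 ± 0.23 in SSCi (edgeR adjusted p = 7.4e-08), and none of its calls over time was lost under any alternative run. Lca5, or lebercilin, an IFT-associated protein (chr9:83390293-83441127, minus strand), was at 31.9 and 42.5 CPM at D18, 58.7, 41.8 and 46.1 at D22, and 60.4, 72.3 and 57 at D25 in RWB. Its SSCd levels were 49.9, 46.5 and 38.3 CPM at D18, 50.8, 52.8 and 46.2 at D22, and 70.0, 83.5 and 79.9 at D28. Its SSCi levels were 35.3 and 46.2 CPM at D18, 64.2 and 61.2 at D25, and 82.6, 92.5 and 105 at D32. Lca5 rose with log2 fold changes of 0.76 ± 0.19 in RWB (edgeR adjusted p = 0.0051), 0.79 ± 0.17 in SSCd (edgeR adjusted p = 0.0011) and 1.20 ± 0.20 in SSCi (edgeR adjusted p = 7.8e-05), and the RWB call was lost without RWB D18 replicate 1 (0.10). Topors, a ligase found at the basal body, was not called and had -0.40 ± 0.17, -0.37 ± 0.16 and -0.31 ± 0.17 in RWB, SSCd and SSCi.

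Among the carriers of lipidated cargo, Unc119 (chr11:78343482-78349164, plus strand), which binds the acyl chain of the transducin alpha subunit, was the highest of the 45 genes per length. It stood at 1091 ± 190.0 TPM (the length-scaled level, which allows genes to be compared) in RWB D25, 1369 ± 308 TPM in SSCd D28 and 1549 ± 199 TPM in SSCi D32 (SD, n = 3 each), followed in each by Rpgrip1 at 488 ± 268, 535 ± 218 and 817 ± 67.4 TPM. In RWB, Unc119 was at 169 and 97 CPM at D18, 813, 435 and 391 at D22, and 1161, 535 and 682 at D25. In SSCd it was at 253, 171 and 190.4 CPM at D18, 1281, 546 and 404 at D22, and 1006, 719 and 619 at D28. In SSCi it was at 96.9 and 146 CPM at D18, 566 and 602 at D25, and 956, 710.4 and 874 at D32. The 4 libraries with the most mitochondrially encoded counts, replicate 1 of RWB D22, RWB D25, SSCd D18 and SSCd D22, were each the highest of their group. The log2 fold changes of Unc119 were 2.58 ± 0.48 in RWB (edgeR adjusted p = 0.00036), 1.93 ± 0.40 in SSCd (edgeR adjusted p = 0.00074) and 2.80 ± 0.48 in SSCi (edgeR adjusted p = 0.00013), and the part of the mitochondrial share in them was not tested.

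Arl13b, the exchange factor for Arl3 on the ciliary membrane (chr16:62793685-62847040, minus strand), was at 23.2 and 26.4 CPM at D18, 40.3, 30.1 and 30.6 at D22, and 45.3, 48 and 37.4 at D25 in RWB. The SSCd values were 35.4, 22.7 and 26.4 CPM at D18, 46.3, 45.5 and 31.1 at D22, and 60.6, 75 and 53 at D28. The SSCi values were 34.4 and 24.7 CPM at D18, 40.0 and 31.4 at D25, and 82.6, 77.7 and 90.1 at D32. Arl13b rose in all 3 cultures, at 0.81 ± 0.24 in RWB (edgeR adjusted p = 0.013), 1.16 ± 0.21 in SSCd (edgeR adjusted p = 0.00022) and 1.50 ± 0.24 in SSCi (edgeR adjusted p = 6.9e-05), and was not called in RWB without either RWB D18 replicate 1 (0.11) or RWB D18 replicate 2 (0.053). Pde6d, which carries prenylated proteins (chr1:86542994-86582629, minus strand), was at 53.1 and 46.5 CPM at D18, 151, 75.6 and 64 at D22, and 219, 93.3 and 89.7 at D25 in RWB. Its SSCd levels were 74.5, 50.8 and 46.5 CPM at D18, 159, 76.4 and 64.7 at D22, and 97, 87.5 and 75.7 at D28. Its SSCi levels were 45.3 and 45.2 CPM at D18, 84.5 and 77 at D25, and 90.8, 73.1 and 78.3 at D32. Those same 4 libraries were again the highest of their groups, and in RWB D22, RWB D25 and SSCd D22 they stood far above the others. Pde6d was called in RWB alone, with log2 fold changes of 1.43 ± 0.42 in RWB (edgeR adjusted p = 0.014), 0.60 ± 0.36 in SSCd (edgeR adjusted p = 0.21) and 0.84 ± 0.41 in SSCi (edgeR adjusted p = 0.12), and the call was lost without any 1 of RWB D18 replicate 1 (0.071), RWB D18 replicate 2 (0.12) or RWB D25 replicate 1 (0.099).

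Arl3, the GTPase that makes both carriers release their cargo, was not called, at 0.62 ± 0.31 in RWB, 0.34 ± 0.27 in SSCd and 0.52 ± 0.31 in SSCi. Rp2, the factor that switches Arl3 off (chrX:20364481-20405653, plus strand), fell in both static cultures. Rp2 was at 18.5, 19 and 15.4 CPM in SSCd D28 and 44.3, 27.5 and 27.7 CPM in SSCd D18. It was at 18.6, 16.3 and 20.9 CPM in SSCi D32 and 39.7 and 29.7 CPM in SSCi D18. Both pairs of groups were apart. Rp2 had log2 fold changes of -0.24 ± 0.26 in RWB (edgeR adjusted p = 0.54), -0.91 ± 0.24 in SSCd (edgeR adjusted p = 0.0056) and -0.90 ± 0.26 in SSCi (edgeR adjusted p = 0.010), and the SSCi call was lost without SSCi D18 replicate 1 (0.13).

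**Figure D3:**
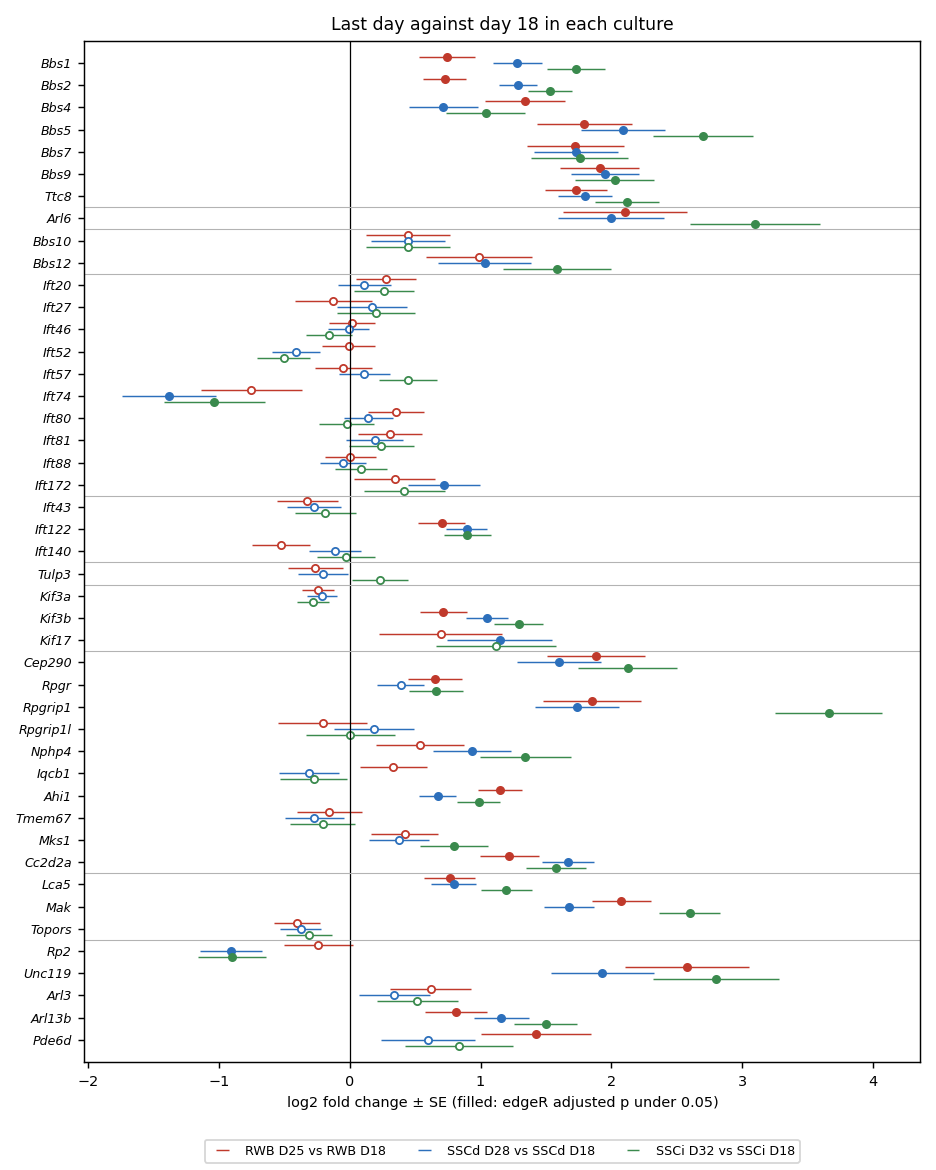
Log2 fold change of each of the 45 genes on the last day over D18, with its standard error as a bar, in RWB (D25), SSCd (D28) and SSCi (D32); filled points passed the edgeR test. Points of the BBSome, Arl6, Mak and Unc119 lie to the right of 0 and most IFT points lie around it.

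Part of the change was present at the middle day. In RWB, 7 of the 45 were higher at D22 than at D18 and 0 lower, where 10.9% of all genes were called, 6.01% as higher and 4.88% as lower. They were Bbs2, Bbs9, Ttc8, Cep290, Ahi1, Mak and Unc119. In SSCd, 11 were higher at D22 than at D18 and 0 lower, where 12.4% of all genes were called, 7.23% as higher and 5.13% as lower. In SSCi, 14 were higher at D25 than at D18 and 0 lower, where 19.8% of all genes were called, 8.89% as higher and 10.9% as lower. The 2 days did not overlap in 21 of the 45 genes in RWB, 17 in SSCd and 35 in SSCi, beside 39.9%, 27.7% and 57.2% of all genes. Ttc8 at that day had 0.96 ± 0.23 (edgeR adjusted p = 0.0099) in RWB, 0.97 ± 0.20 (edgeR adjusted p = 0.0032) in SSCd and 1.32 ± 0.25 (edgeR adjusted p = 0.0011) in SSCi. Mak had 1.41 ± 0.22 (edgeR adjusted p = 0.00043), 1.33 ± 0.19 (edgeR adjusted p = 0.00011) and 1.71 ± 0.24 (edgeR adjusted p = 6.5e-05) in the same order. The RWB count was 4 without RWB D22 replicate 1 or 2. Without RWB D22 replicate 1, 1106 of all genes were called, against 1829 with every library. Either RWB D18 library left out leaves a single library in that group. RWB calls were lost there too, among the 45 and among all genes. The SSCd count was 7 without SSCd D18 replicate 2 or SSCd D22 replicate 1. SSCi calls were lost without either SSCi D18 library, of which replicate 1 held the mesenchyme markers, and without either SSCi D25 library. Each of these fits leaves a single library in a group.

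Rotation was set against static culture of dissected cups at D22 and D18, the days both have. At D22 edgeR called 0 of the 45 genes between RWB and SSCd, where 1.89% of all genes were called, 0.405% as higher and 1.49% as lower, DESeq2 called 0 as well, and 6, or 13.3%, had an unadjusted p under 0.05, beside 13.1% of all genes. They were Bbs4 at 0.57 ± 0.26 (edgeR adjusted p = 0.35), Ahi1 at 0.31 ± 0.14 (edgeR adjusted p = 0.36), Ift172 at -0.68 ± 0.28 (edgeR adjusted p = 0.26), Kif17 at -0.93 ± 0.41 (edgeR adjusted p = 0.32), Nphp4 at -0.86 ± 0.30 (edgeR adjusted p = 0.18) and Cc2d2a at -0.52 ± 0.19 (edgeR adjusted p = 0.21). Nphp4 was at 11.7, 15.6 and 18.5 CPM in RWB D22 and 28, 25.5 and 29.8 CPM in SSCd D22, without overlap. Cc2d2a was at 49.6, 57 and 58.3 CPM in RWB D22 and 77, 85.3 and 74.9 CPM in SSCd D22, also without overlap. Libraries of 5 of the 45 genes did not overlap between RWB and SSCd at D22, beside 17.8% of all genes. At D18, edgeR called 0 of the 45 between RWB and SSCd, where 0.488% of all genes were called, 0.0715% as higher and 0.417% as lower, DESeq2 called 0, and 0 had an unadjusted p under 0.05, beside 8.80% of all genes. The D18 libraries did not overlap in 7 of the 45 genes, beside 25.4% of all genes. For the difference in the change over D18 to D22 between RWB and SSCd, edgeR called 0 of the 45 and 0 of all genes, 0 of the 45 and 3.1% of all genes had an unadjusted p under 0.05, and DESeq2 called 0 of the 45.

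Set against intact organoids at D25, RWB had 5 of the 45 genes higher and 0 lower, where 8.68% of all genes were called, 3.60% as higher and 5.08% as lower. Bbs4 was at 206, 119 and 99.9 CPM in RWB D25 and 58.2 and 50.2 CPM in SSCi D25, at 1.38 ± 0.31 (edgeR adjusted p = 0.0088). Cep290 was at 268, 424 and 248 CPM in RWB D25 and 166 and 93.1 CPM in SSCi D25, at 1.27 ± 0.36 (edgeR adjusted p = 0.035). Ahi1 was at 264, 219.5 and 174 CPM in RWB D25 and 134 and 109.9 CPM in SSCi D25, at 0.84 ± 0.16 (edgeR adjusted p = 0.0036). All 3 genes were apart between the groups. Mak was at 332, 367 and 292 CPM in RWB D25 and 192 and 162 CPM in SSCi D25, at 0.90 ± 0.21 (edgeR adjusted p = 0.014). Ttc8 was at 203, 147 and 157 CPM in RWB D25 and 88.7 and 99.4 CPM in SSCi D25, at 0.84 ± 0.23 (edgeR adjusted p = 0.027). Mak and Ttc8 were apart as well, and 16 of the 45 genes did not overlap, beside 38.6% of all genes. Calls among the 45 were lost without either SSCi D25 library, which leaves a single library in that group. The count of the 45 called was 3 without RWB D25 replicate 1. It was 0 when these groups were fitted alone, where 90 of all genes were called, against 1458 in the main fit.

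At D25 the cultures also differed in their cell cycle markers, which summed to 306 to 502 CPM in RWB D25 and 897 to 1008 in SSCi D25, with 12 of 15 called lower in RWB, and in serum and B27, which only RWB had received by then. Photoreceptor markers summed to 4839 to 5429 CPM in RWB D25 and 5112 to 5538 CPM in SSCi D25. Retinal progenitor markers summed to 511 to 792 CPM in RWB D25 and 1168 to 1500 CPM in SSCi D25. Those of the pigment epithelium summed to 49.4 to 1077 CPM in RWB D25 and 32.6 to 39.6 CPM in SSCi D25. The part of these sums in the calls was not tested. Rotation, dissection and the supplements cannot be told apart in this comparison. Between the static cultures at D18, Rpgrip1 and Mak were higher in SSCd, where 3.86% of all genes were called, 0.351% as higher and 3.51% as lower. Rpgrip1 was at 264, 167 and 315 CPM in SSCd D18 and 86.6 and 103 CPM in SSCi D18, at 1.39 ± 0.37 (edgeR adjusted p = 0.035). Mak was at 102, 76.7 and 104 CPM in SSCd D18 and 55.5 and 52.6 CPM in SSCi D18, at 0.80 ± 0.21 (edgeR adjusted p = 0.039). Both genes were apart between the groups, as were 15 of the 45, beside 21.7% of all genes. Neither was called when any 1 of the 5 libraries was left out. Groups recur across these comparisons, which therefore share libraries.

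**Figure D4:**
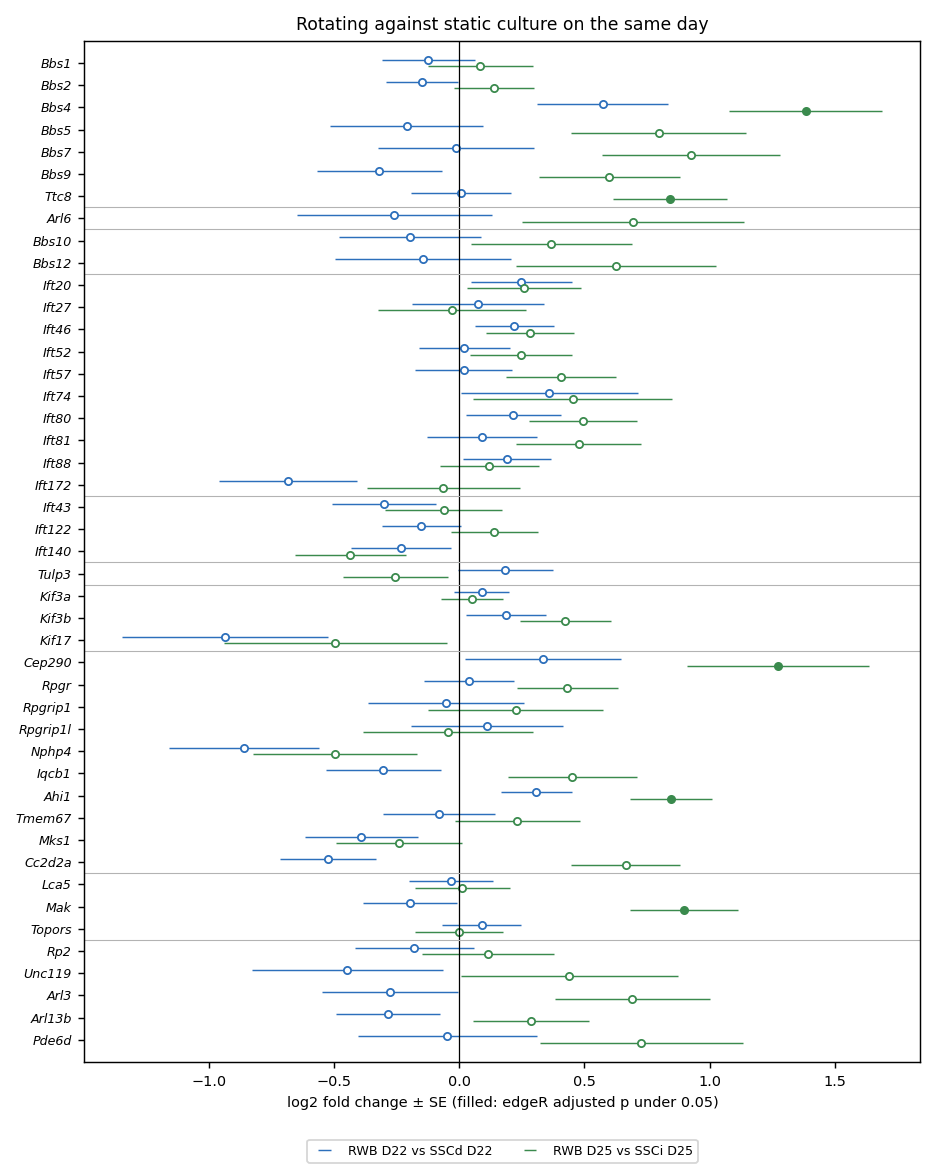
Log2 fold change of each of the 45 genes in RWB over SSCd at D22 and in RWB over SSCi at D25, with standard errors as bars; filled points passed the edgeR test. No D22 point is filled, and the 5 filled D25 points are Bbs4, Ttc8, Cep290, Ahi1 and Mak.

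Beside their levels, some of the genes changed in the shares of their transcripts. Of the 45, 39 had at least 2 transcripts tested. By edgeR's test of transcript usage, with Simes p-values adjusted over 10537 genes, 3 of the 39 changed between D25 and D18 in RWB (1.31% of all genes), 5 between D28 and D18 in SSCd (2.32%) and 4 between D32 and D18 in SSCi (2.35%). Cep290, Rpgr and Ahi1 were called in all 3 cultures. The adjusted p of Cep290 was 4.3e-05 in RWB, 6.4e-09 in SSCd and 2.8e-06 in SSCi, that of Rpgr 0.00085, 1.7e-05 and 2.9e-06, and that of Ahi1 0.00023, 0.0091 and 0.00092. Ahi1 was no longer called in SSCd without any 1 of SSCd D18 replicate 1 (0.069), SSCd D18 replicate 2 (0.053), SSCd D18 replicate 3 (0.052) or SSCd D28 replicate 1 (0.10), nor in SSCi without SSCi D18 replicate 1 (0.14), with the adjusted p in parentheses. Ttc8 was called in SSCd, with an adjusted p of 0.0079, and lost that call without SSCd D18 replicate 2 (0.092). Mks1 in SSCd, at 0.00083, and Rpgrip1 in SSCi, at 0.0085, were also called, and Rpgrip1 lost its call without either SSCi D18 replicate 1 (0.30) or SSCi D18 replicate 2 (0.35). On simulated counts this usage test made more false calls than its nominal rate.

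To see which piece of RNA differed, inclusion of cassette exons was computed as the estimated counts of the annotated transcripts that hold the exon, over those plus the transcripts that join its neighbours. This covered 57 exons in 30 of the 45 genes. Inclusion moved by at least 20 points, without overlap between libraries, in 6 exons in RWB, 5 in SSCd and 7 in SSCi, which is 10.5%, 8.77% and 12.3% of the 57, beside 3.39%, 2.47% and 4.05% of all 10272 such exons. The exons named next met that rule in all 3 cultures. They were chosen after their values were seen and are given without a test. The shares rest on how the authors' software divided reads between transcripts.

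Exons of 21 bases in Cep290, 30 bases in Ttc8 and 13 bases in Arl6 are shown because they are short enough to print whole and each became the more used form. The exon is in capitals, with 24 bases of the neighbouring exons on each side in lower case, from GENCODE M21 transcripts on GRCm38. The exon lies at chr10:100495641-100495661 (plus strand) in Cep290, at chr12:98937120-98937149 (plus strand) in Ttc8 and at chr16:59618666-59618678 (minus strand) in Arl6.
Cep290: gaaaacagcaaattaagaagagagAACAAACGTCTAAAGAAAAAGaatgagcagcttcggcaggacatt
Ttc8: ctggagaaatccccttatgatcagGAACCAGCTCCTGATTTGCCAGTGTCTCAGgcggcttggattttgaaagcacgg
Arl6: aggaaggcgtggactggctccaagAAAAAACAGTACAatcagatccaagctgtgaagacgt
The Cep290 and Ttc8 exons are whole multiples of 3 bases long, while that of Arl6 leaves a remainder of 1. Adenine and guanine make up 76.2% of the Cep290 exon, 43.3% of the Ttc8 exon and 76.9% of the Arl6 exon.

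Inclusion of the Cep290 exon was 35.9 and 15.9% at D18, 38, 40.4 and 46.6 at D22, and 53.4, 57.5 and 61.7 at D25 in RWB. Its share in SSCd was 18.4, 27.8 and 37% at D18, 58.2, 44.7 and 58.3 at D22, and 83, 70.4 and 64.8 at D28. Its share in SSCi was 18.2 and 34.3% at D18, 62.7 and 75.9 at D25, and 81.4, 71.8 and 61.1 at D32. The last day lay above D18 in all 3, by 31.6 points in RWB, 45 in SSCd and 45.2 in SSCi. The RWB difference was 41.6 points without RWB D18 replicate 1 and 21.6 without RWB D18 replicate 2. A photoreceptor form of Ttc8 with a short extra exon is known in mouse retina. Inclusion of the 30-base Ttc8 exon was 24 and 15.1% at D18, 35.7, 46.8 and 44.1 at D22, and 71.6, 59.6 and 52.9 at D25 in RWB. The SSCd libraries gave 14.4, 17.5 and 17.3% at D18, 57.3, 63.1 and 62.9 at D22, and 77, 68.2 and 69.9 at D28. The SSCi libraries gave 10.3 and 20.0% at D18, 71.5 and 49.4 at D25, and 75, 64.6 and 73.5 at D32. At D22 the 3 SSCd libraries all lay above the 3 RWB libraries, and by the last day the cultures overlapped. The differences were 41.8 points in RWB, 55.3 in SSCd and 55.9 in SSCi. The usage test called Ttc8 in SSCd alone, with an adjusted p of 0.29 in RWB and 0.075 in SSCi.

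Inclusion of the Arl6 exon was 47.9 and 43.8% at D18, 78.5, 76.7 and 74.2 at D22, and 90.2, 81.6 and 82.6 at D25 in RWB. In SSCd it was 53.4, 46.6 and 47% at D18, 81.1, 72.1 and 71.6 at D22, and 84.7, 80.4 and 82.3 at D28. In SSCi it was 42 and 36.2% at D18, 72.5 and 72.4 at D25, and 83.5, 81.4 and 82.5 at D32. All 9 libraries of the last days lay between 80.4% and 90.2%, and each day lay above the one before it in RWB and SSCi. The differences over D18 were 39.0 points in RWB, 33.5 in SSCd and 43.3 in SSCi. The usage test did not call Arl6, with adjusted p of 0.14 in RWB, 0.32 in SSCd and 0.17 in SSCi. The F-test per gene, an alternative to it, gave Arl6 an adjusted p of 0.029 in RWB, 0.081 in SSCd and 0.039 in SSCi, and the usage test with the replicate block gave 0.036, 0.14 and 0.037 in that order.

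Rpgr has a coding exon of 879 bases at chrX:10176003-10176881, minus strand, of which 67.7% is adenine or guanine. Its inclusion was 25.6 and 23% at D18, 41.8, 39.5 and 67.1 at D22, and 61.9, 73.4 and 75.3 at D25 in RWB. Its share in SSCd was 28.9, 21.7 and 28.6% at D18, 49, 44.4 and 59.3 at D22, and 76.9, 74.2 and 68.2 at D28. Its share in SSCi was 13.2 and 16.3% at D18, 55.4 and 71.4 at D25, and 69.2, 74.7 and 67.7 at D32. This form held the majority of the counts considered in every library of the last days, while the log2 fold change of the whole gene was 0.65 in RWB, 0.39 in SSCd and 0.66 in SSCi. The differences were 45.9 points in RWB, 46.7 in SSCd and 55.8 in SSCi. In Ahi1 the exon, of 256 bases at chr10:21070288-21070543 on the plus strand, belongs to a transcript annotated as a target of nonsense-mediated decay. Its inclusion was 11.5 and 4.32% at D18, 24.2, 36.5 and 27.8 at D22, and 44.4, 45.6 and 45.4 at D25 in RWB. The SSCd libraries gave 6.56, 11.7 and 10.3% at D18, 18.6, 21.3 and 28.1 at D22, and 50.3, 39.7 and 21.3 at D28. The SSCi libraries gave 3.1 and 6.02% at D18, 28.3 and 25.9 at D25, and 35.7, 45 and 26.6 at D32. The RWB D25 libraries were close together and the SSCd D28 libraries spread widely. The differences were 37.2 points in RWB, 27.6 in SSCd and 31.2 in SSCi.

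**Figure D5:**
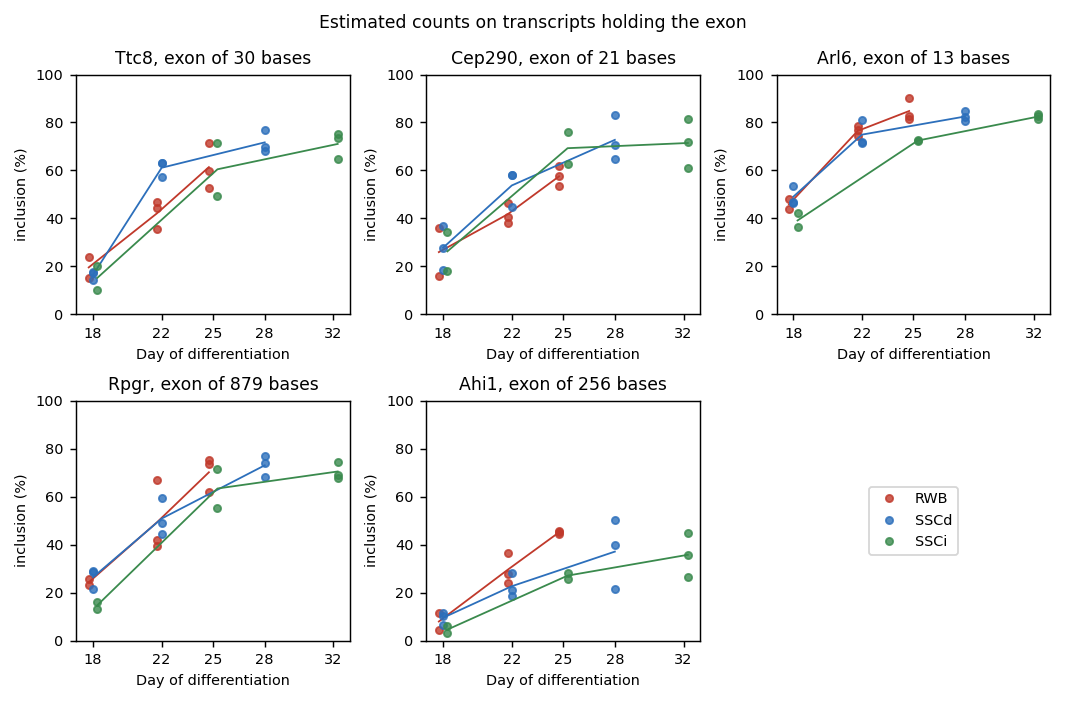
Inclusion of 5 cassette exons, in percent of the estimated counts on transcripts that hold or skip the exon, against the day of differentiation, with a point per library and a line through the group means. Inclusion of every exon shown is higher on the last day than at D18 in RWB, SSCd and SSCi, and the Arl6 exon is highest, at 80.4% to 90.2% on the last days.

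Of the 45 genes, 41 had a promoter window of 250 bases before to 50 after a start site in the RefSeq table for GRCm38.p6. The X-box, the palindrome that RFX factors bind in ciliary genes, was searched as GTNNCC, 2 bases of any kind and GGNNAC, which reads the same on both strands. It was found in 7 of the 41 (17.1%), beside 2.16% of 27025 genes. The 7 were Ahi1, Bbs1, Bbs4 and Bbs7, which were higher in all 3 cultures, Nphp4 in 2, Mks1 in 1, and Ift57, which was not called. The CRX-type motif TAATCC, on both strands, was in 4 of the 41 (9.76%), Bbs1, Mak, Rpgrip1 and Unc119, beside 8.14% of all genes. A match is a description of the letters and shows no binding. Windows around the X-box matches of Bbs7, Mks1 and Ift57 are printed, with the motif in capitals, to set a gene called in all 3 cultures beside one called in 1 and one in none.
Bbs7, chr3:36613477-36613530, minus strand: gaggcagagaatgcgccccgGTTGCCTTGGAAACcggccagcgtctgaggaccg
Mks1, chr11:87853171-87853224, plus strand: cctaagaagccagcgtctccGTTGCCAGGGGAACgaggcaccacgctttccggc
Ift57, chr16:49699187-49699240, plus strand: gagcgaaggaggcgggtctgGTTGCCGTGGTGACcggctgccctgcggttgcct

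The rest of the machinery was read from lists of genes outside the 45, and the counts stand beside 28.9% of all genes called in RWB, 34.6% in SSCd and 36.7% in SSCi. Of 17 other IFT and dynein-2 genes, 4 were higher and 1 lower in RWB, 4 and 1 in SSCd, and 3 and 1 in SSCi. Wdr60, a dynein-2 intermediate chain, had 1.53 ± 0.22 (edgeR adjusted p = 2.6e-05) in RWB, 1.67 ± 0.19 (edgeR adjusted p = 1.3e-06) in SSCd and 1.74 ± 0.22 (edgeR adjusted p = 4.8e-06) in SSCi, and was lower in RWB than in SSCd at D22, at -0.84 ± 0.19 (edgeR adjusted p = 0.020). Kifap3, the accessory subunit of the Kif3 motor, had 0.92 ± 0.22 (edgeR adjusted p = 0.0039) in RWB, 0.88 ± 0.20 (edgeR adjusted p = 0.0016) in SSCd and 0.58 ± 0.22 (edgeR adjusted p = 0.048) in SSCi. Of 15 other transition zone genes, 2 were higher and 2 lower in RWB, 3 and 2 in SSCd, and 3 and 0 in SSCi. Tmem237, a membrane protein of the gate, had 1.54 ± 0.34 in RWB, 1.57 ± 0.29 in SSCd and 1.56 ± 0.34 in SSCi and was called in each. Of 5 other genes for lipidated cargo, Unc119b, the broadly expressed relative of Unc119, was the 1 called, as lower in RWB, at -0.52 ± 0.19 (edgeR adjusted p = 0.045), and in SSCd, at -0.47 ± 0.17 (edgeR adjusted p = 0.038), and had -0.41 ± 0.19 (edgeR adjusted p = 0.10) in SSCi. Of 6 other BBSome-related genes, among them the subunit Bbip1, 1 was higher in RWB, 0 were called in SSCd and 1 was lower in SSCi.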

How the data were processed

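PolyA RNA libraries of 24 organoid samples in 9 groups were analysed. The authors deposited estimated counts per gene and per transcript, not scaled to depth, of which 43.0% were whole numbers. A further deposited table of scaled values (unit score, 15396 genes) was used only to compare levels, being 0.900 to 1.25 times CPM. Tools listed in the submitters' processing notes are edgeR 3.13.9, kallisto 0.42.5 and limma 3.32.2, with the build GRCm38.p5. The strand setting, annotation release and summing of transcripts to genes were not given in the sources used here.

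Gene counts were rounded, filtered with filterByExpr and scaled by TMM, and 1 edgeR 4.0.16 quasi-likelihood fit of 9 group means gave all comparisons. The SE of a log2 fold change is its size over the square root of F. Transcript usage was tested with diffSpliceDGE, and exon inclusion was computed on the 103635 of 105129 transcripts found in GENCODE M21. DESeq2 1.42.0, another scaling, no filter, a replicate block, fits of the compared groups alone and libraries left out were alternatives. R 4.3.3, limma 3.58.1, Python 3.11.15 and pandas 2.3.3 were used. The gene test was tested on simulated data with known changes, and the usage test made more false calls there than its nominal rate.

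Per-sample values are given for up to 3 genes per role with the largest fold change among those called over time, for genes called between cultures, and for genes called in transcript usage in all 3 cultures. Other per-sample values, and genes named from other lists, were chosen after their values were seen. The 45 genes and all lists were chosen with earlier results of these data known. Replicate numbers were checked for pairing from the correlation of deviations from group means. In RWB D22 and SSCd D22 the 3 correlations were 0.43, 0.20 and 0.43. In SSCd D18 and SSCd D22 they were 0.41, 0.12 and 0.33. RWB D25 and SSCd D18, which differ in culture and day, had 0.56, 0.22 and 0.46. Some other pairs of groups had values near or below 0, such as -0.07, -0.03 and -0.09 in SSCd D22 and SSCi D32. Correlations between libraries of different numbers were not computed, so these values do not settle the pairing, and groups of 2 libraries cannot settle it either. Of the 45 genes, 9 share exon bases with a gene on the opposite strand, at most 8.70% of their length, and 3 with one on the same strand, at most 2.87%. The values of 1 gene of the other lists are not reported here.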

Additional observations from a re-analysis of the deposited data

How the results depend on the processing

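No log2 fold change of a called gene among the 45 changed its sign under any alternative run. Of the last-day calls, 12 of 20 in RWB, 19 of 24 in SSCd and 18 of 24 in SSCi held under every alternative. With the compared groups fitted alone, 12 of the 45 were called for RWB D25 over D18 and 8 for SSCi D25 over D18. The count was 0 for RWB D25 over SSCi D25 and 0 for SSCd D18 over SSCi D18. Over all genes 2488, 1124, 90 and 0 were called in that order, against 4855, 3331, 1458 and 649 in the main fit. Without the filter on low counts, 3 were called for RWB D25 over SSCi D25 and 1 for SSCd D18 over SSCi D18. There 1151 and 632 of all genes were called. Leaving out the 4 libraries of largest mitochondrial share and SSCi D18 replicate 1 leaves a single library in SSCi D18. Calls for SSCd D18 over SSCi D18 were then lost, among the 45 and among all genes. Calls of transcript usage in SSCi were lost as well, and so was that of Ahi1 in SSCd. Leaving out 1 library at a time gave 1 to 8 calls for RWB D22 over D18, 7 to 12 for SSCd D22 over D18, 5 to 10 for SSCi D25 over D18, 0 to 7 for RWB D25 over SSCi D25, 0 to 0 for SSCd D18 over SSCi D18, and 3 to 6 usage changes in SSCd and 2 to 4 in SSCi. Over all genes, 1106 were called for RWB D22 over D18 without RWB D22 replicate 1, against 1829 with every library. The cause of these shifts was not tested. Leaving out those 5 libraries in the usage test, and every alternative for exon inclusion, were chosen after seeing the data.

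With the replicate number as a block, 14 of the 45 were called for RWB D22 over D18 and 16 for RWB D25 over SSCi D25. Over all genes 2626 and 3348 were called, against 1829 and 1458 without the block. In both comparisons a group of 2 libraries leaves the pairing unsettled. The block gave 0 for RWB over SSCd at D22 and moved no other count by over 1.5 times. Whether the numbers pair the samples is not settled, and the main fit has no term for them.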

Other observations

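Of 13 other genes known for the photoreceptor cilium and outer segment, 7 were higher and 2 lower on the last day than at D18 in RWB, 7 and 2 in SSCd, and 8 and 2 in SSCi, where 28.9%, 34.6% and 36.7% of all genes were called. Rp1, a microtubule protein of the photoreceptor axoneme, had a log2 fold change of 5.32 ± 0.53 (edgeR adjusted p = 5.3e-07) in RWB, 5.06 ± 0.43 (edgeR adjusted p = 4.8e-08) in SSCd and 6.61 ± 0.56 (edgeR adjusted p = 4.6e-08) in SSCi. Rp1l1, its relative, had 3.61 ± 0.38 (edgeR adjusted p = 9.7e-07), 3.40 ± 0.32 (edgeR adjusted p = 1.2e-07) and 4.41 ± 0.40 (edgeR adjusted p = 8.0e-08), in the order RWB, SSCd and SSCi. Fam161a, a microtubule-binding protein of the connecting cilium, had 2.75 ± 0.29 (edgeR adjusted p = 1.0e-06), 3.11 ± 0.25 (edgeR adjusted p = 2.8e-08) and 3.56 ± 0.30 (edgeR adjusted p = 4.9e-08) in that order. The kinase Nek2, which acts at centrosomes of dividing cells, was lower in all 3 cultures, at -2.54 ± 0.28 (edgeR adjusted p = 1.5e-06), -2.55 ± 0.27 (edgeR adjusted p = 4.5e-07) and -2.35 ± 0.28 (edgeR adjusted p = 2.2e-06), in the order RWB, SSCd and SSCi, and so was the centriole protein Cep78, which averaged 24.8 CPM in RWB D25 and 49.6 CPM in RWB D18 (edgeR adjusted p = 0.00021) and had log2 fold changes of -1.38 ± 0.16 (edgeR adjusted p = 1.7e-06) in SSCd and -1.10 ± 0.17 (edgeR adjusted p = 5.7e-05) in SSCi. These genes were read beside the fall of the cell cycle markers, whose part in them was not tested.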
